A study of Mus musculus with 21 samples.

Results

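Tubulin is the building block of microtubules, the polar filaments that carry cargo along axons and dendrites, form the mitotic spindle and make up the core of cilia. Each subunit is a dimer of an alpha and a beta tubulin, and mammals encode several near-identical copies of each, called isotypes, that differ mainly in their C-terminal tails and in the cells that use them. Tubb3 (class III beta tubulin) is the isotype used as a neuronal marker, Tubb2b and Tuba1a are prominent in young neurons that extend axons, Tubb4b is widespread and abundant in ciliated cells, and Tubb6 is found mainly outside the nervous system. The 10 isotypes described here are the alpha tubulins Tuba1a, Tuba1b and Tuba4a and the beta tubulins Tubb2a, Tubb2b, Tubb3, Tubb4a, Tubb4b, Tubb5 and Tubb6. They were taken by gene symbol, and all 10 were present among the 23587 genes of one deposited table and the 22918 genes of the other.

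Libraries were made from sorted cells of mouse main olfactory epithelium, and the labels give neither age nor sex. Every mouse carried a tetracycline-responsive (tetO) construct with mCherry, holding either HyperTRIBE alone (HT), an RNA-editing domain, or Mex3a joined to HyperTRIBE (MexHT). Mex3a is an RNA-binding protein, so HT served as the comparison for the fused Mex3a. The genotypes were gg8tTA; OMPtTA; tetO-HyperTRIBE_mCherry, gg8tTA; OMPtTA; tetO-Mex3a_HyperTRIBE_mCherry and gg8tTA; tetO-Mex3a_HyperTRIBE_mCherry. The gg8-tTA driver is active in immature olfactory sensory neurons (OSN) and OMP-tTA in mature OSN, so cells outside these stages were not meant to carry the construct. With gg8 and OMP together, MexHT mice gave 6 libraries of OSN and 5 of mCherry-negative cells, and HT mice gave 3 of each. With gg8 alone, MexHT mice gave 2 of each. Negative cells came from the same mouse as the OSN of the same replicate number, per the labels, and no group without a construct or without a driver was analysed here. All cells were freed with papain, and RNA was extracted with TRIzol and made into libraries with the SMARTer stranded kit.

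Recovered depth was 7425287 to 12443133 counts in the 17 libraries with both drivers and 10261996 to 15216186 in the 4 gg8 libraries. Mex3a, the gene added by the construct, was at 328.5 to 1271 TPM (a level per transcript length, scaled to a fixed total per library) in MexHT OSN and at 24.0 to 61.5 TPM in HT OSN. Of the cell type markers, the summed level of 14 mature OSN genes was 11780 to 17940 TPM in HT OSN but 2633 to 8147 TPM in MexHT OSN, and it was also high in most mCherry-negative libraries (925 to 14720 TPM with both drivers). Connective tissue and vessel markers (8 genes) summed to 7832 to 23540 TPM in these negative libraries against 95.1 to 309.9 TPM in OSN. Xist, expressed from the inactive X chromosome of females, was at 58.4 to 139.8 TPM in all 6 MexHT OSN libraries but at 0.126, 60.3 and 0.140 TPM in the 3 HT OSN libraries. In negative cells with both drivers it was at 55.3 to 162.5 TPM in all 5 MexHT libraries but at 0.0934, 76.5 and 0.135 TPM in the 3 HT libraries. Construct and Xist level were therefore partly confounded in the comparison of OSN. The same holds for the comparison of negative cells and for the test of construct by fraction.

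The alpha genes Tuba1a (chr15:98949837-98953703) and Tuba1b (chr15:98931425-98934565) are neighbours on the minus strand, as are the beta genes Tubb2a (chr13:34074274-34078007) and Tubb2b (chr13:34126748-34130466), in mm10 (GRCm38) by the GENCODE annotation. Tubb3 lies at chr8:123411424-123422015 on the plus strand. Tuba4a (chr1:75214228-75219865), Tubb4a (chr17:57080066-57087782), Tubb4b (chr2:25222160-25224702) and Tubb5 (chr17:35833921-35838306) lie on the minus strand. Isotypes are alike enough that short reads can match more than 1 gene. In the longest annotated transcript, 72.9% of the 50-base windows of Tuba1a and 73.8% of those of Tuba1b also occurred in another gene, most often the isotype Tuba1c. The share was 49.6% for Tubb2a and 39.3% for Tubb2b, mostly through each other, and 50.9% for Tubb4b, mostly through the pseudogene Tubb4b-ps1. How reads with several matches were counted is not given in the sources used here, so levels of these 5 genes are uncertain. By contrast, Tubb3 and Tubb6 shared no such window, and Tuba4a, Tubb4a and Tubb5 shared at most 1.11% of theirs.

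Promoter sequences are shown for Tubb5 and Tubb4b, the 2 abundant beta isotypes that differed in opposite directions between MexHT and HT neurons. Each line gives the 250 bases before the RefSeq transcription start (GRCm38.p6), 5′ to 3′ on the gene's own strand, which is the minus strand for both: chr17:35838302-35838551 for Tubb5 and chr2:25224703-25224952 for Tubb4b. Capitals mark the CCAAT box, searched as CCAAT on both strands.
Tubb5: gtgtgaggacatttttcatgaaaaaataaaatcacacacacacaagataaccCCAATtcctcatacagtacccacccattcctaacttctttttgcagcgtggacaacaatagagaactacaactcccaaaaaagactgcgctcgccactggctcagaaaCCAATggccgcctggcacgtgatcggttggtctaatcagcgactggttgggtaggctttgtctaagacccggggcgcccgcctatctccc
Tubb4b: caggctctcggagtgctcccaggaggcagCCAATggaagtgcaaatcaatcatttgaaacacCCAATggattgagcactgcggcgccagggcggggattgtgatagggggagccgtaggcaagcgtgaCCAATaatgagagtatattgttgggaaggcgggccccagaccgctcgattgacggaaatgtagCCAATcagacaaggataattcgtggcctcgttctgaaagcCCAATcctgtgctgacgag
Tubb4b held 5 CCAAT boxes in this window and Tubb5 held 2. Of the 8 isotypes with an entry in the RefSeq promoter table, 4 held at least 1 (Tubb3 and Tuba1a held 1 each), against 33.8% of all 32851 promoters of this length. The palindromic Olf-1 motif, bound by the olfactory factors of the EBF family, occurred in 0 of these 8 windows and in 0.779% of all promoters. These matches describe letters in the windows and say nothing of use.

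In control neurons (HT OSN) a pair of isotypes dominated. Tuba1a was at 1324 ± 39.7 TPM (SD, n = 3) and made up 92.4% ± 1.08 of the alpha tubulin listed. Tubb4b was the leading beta isotype, with 1111 ± 92.8 TPM and 46.4% ± 4.64 of the beta tubulin. Below it came Tubb3 with 563 ± 140.4 TPM, Tubb5 with 381 ± 94.0 TPM, Tubb2b with 240.2 ± 27.9 TPM and Tubb2a with 101.2 ± 49.8 TPM. The ranges of Tubb3 and Tubb5 overlapped, whereas Tuba1a (1284 to 1364 TPM) stood clear of Tubb4b (1006 to 1182 TPM). At the low end, Tuba4a (57.4 ± 24.2 TPM) and Tuba1b (51.8 ± 9.95 TPM) overlapped as well, Tubb6 was at 17.1 ± 3.11 TPM and Tubb4a at 3.43 ± 1.76 TPM. Recovered counts were 17 to 110 for Tubb4a and 33 to 409 for Tubb6 in the libraries with both drivers, and at least 179 for every other isotype, so Tubb4a rests on the fewest reads.

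**Figure D1:**
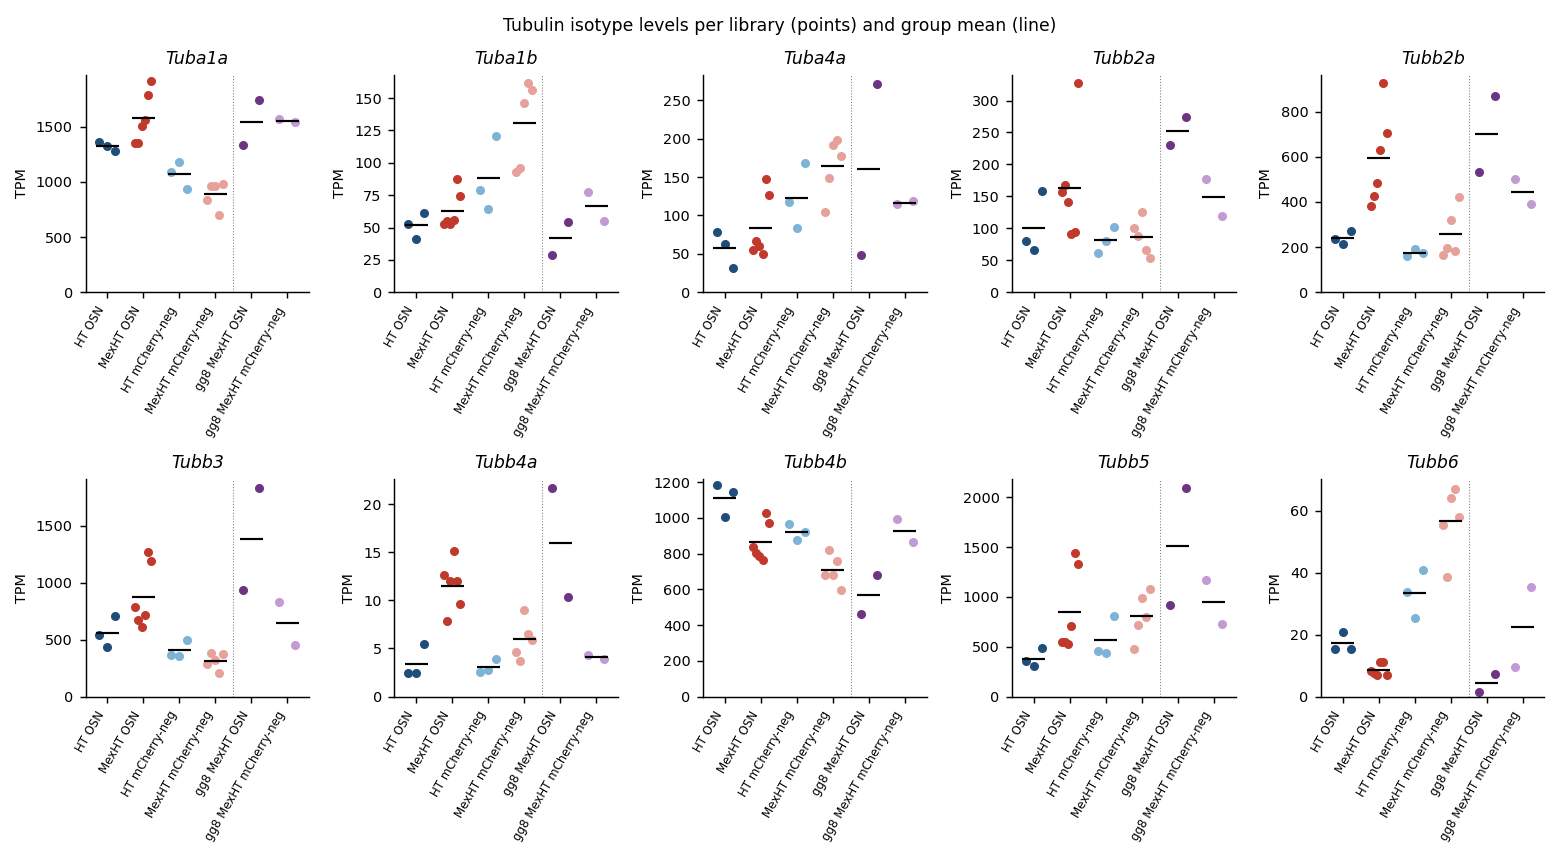
Level of each tubulin isotype in TPM on a linear axis, 1 point per library and a line at the group mean, for 4 groups with both drivers (left of the dotted line) and 2 with gg8 alone (right, from a separately scaled table). Tubb2b and Tubb4a of MexHT OSN lie above all HT OSN points, and Tubb6 lies below them. Among the libraries with both drivers, libraries 5 and 6 of MexHT OSN have the highest Tubb5, at 1440.0 and 1332 TPM.

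The first comparison asked how neurons with the Mex3a fusion differ from those with the editing domain alone. Tubb2b, Tubb4a and Tubb5 rose in MexHT OSN, while Tubb4b and Tubb6 fell. The other 5 isotypes, among them Tubb3 and all 3 alpha tubulins, did not pass the test. With 5 of 10 called, against 36.8% of all 16067 genes tested (19.9% higher and 16.8% lower), the share of isotypes called was not far from the background. The median log2 difference was 0.56 over the 10 isotypes and 0.03 over all genes.

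Among the isotypes that rose, Tubb2b, a beta tubulin of differentiating neurons, was at 237.4, 213.7 and 269.4 TPM in HT OSN and at 380.1 to 926.4 TPM (median 558.3) in MexHT OSN. The groups did not overlap, and Tubb2b was higher by 1.24 on the log2(TPM + 1) scale (SE 0.255, limma adjusted p = 0.00458). Groups did not overlap for 4 of the 10 isotypes in this comparison, against 38.4% of all genes. Tubb4a, a scarce isotype best known from oligodendrocytes and brain neurons, was at 2.40, 2.43 and 5.46 TPM in HT OSN and at 7.85 to 15.1 TPM (median 11.98) in MexHT OSN. It had the largest difference of the 10, 1.54 (SE 0.266, adjusted p = 0.002), again with no overlap. Tubb5, an isotype abundant in dividing cells and in developing brain, was at 354.3, 303.7 and 485.8 TPM in HT OSN. In MexHT OSN it ranged from 524.6 to 1440.0 TPM (median 628.6). Its difference was 1.05 (SE 0.354, adjusted p = 0.04), with the 2 highest values in MexHT OSN libraries 5 and 6. The Tubb5 call was lost when MexHT OSN library 4 or 6, or HT OSN library 1 or 2, was left out (adjusted p 0.0581 to 0.143).

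The isotypes that fell were an abundant and a scarce one. Tubb4b was at 1182, 1006 and 1146 TPM in HT OSN and at 761.2 to 1026 TPM (median 819.7) in MexHT OSN, so that only MexHT OSN library 5 reached the HT range. The log2 difference was -0.37 (SE 0.131, adjusted p = 0.0491). This call was lost when any 1 of 7 libraries was left out (MexHT OSN 1, 2, 3 or 4, or any HT OSN), with adjusted p of 0.0666 to 0.171. Tubb6, at 15.5, 20.7 and 15.2 TPM in HT OSN, was at 6.96 to 11.1 TPM (median 7.92) in MexHT OSN. It fell by 0.92 (SE 0.205, adjusted p = 0.00678) without overlap.

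Tubb3 was higher in mean but not called. It was at 541.7, 433.9 and 712.3 TPM in HT OSN and at 615.4 to 1274 TPM (median 751.6) in MexHT OSN, and MexHT libraries 2 and 3 lay within the HT range. The difference was 0.61 (SE 0.258, adjusted p = 0.0876). Tuba1a, the main neuronal alpha tubulin, was at 1284 to 1364 TPM in HT OSN and 1348 to 1912 TPM in MexHT OSN, a difference of 0.24 (SE 0.146, adjusted p = 0.213). For Tuba1b, Tuba4a and Tubb2a the differences were 0.27, 0.51 and 0.65, with adjusted p of 0.289, 0.329 and 0.214.

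The make-up of beta tubulin differed between the groups of neurons. Tubb4b made up 41.0% to 49.2% of beta tubulin in HT OSN but 21.3% to 30.7% in MexHT OSN, and these ranges did not overlap. Tubb5 made up 14.7% to 17.4% in HT OSN against 20.1% to 30.1% in MexHT OSN, and Tubb2b 9.65% to 10.45% against 13.9% to 21.5%, also without overlap. In MexHT OSN the 3 largest shares lay close together, with Tubb4b at 26.7% ± 4.53, Tubb3 at 25.9% ± 1.72 and Tubb5 at 24.1% ± 4.54 (SD, n = 6). Shares of a total are tied to each other, and those of Tubb4b, Tubb5 and Tubb2b are given without a test. The Tubb3 share was 23.05% ± 2.22 (n = 3) in HT OSN, 2.88 percentage points lower (exact permutation test, two-sided, p = 0.0714, adjusted p = 0.153 over 10 share tests). For Tuba1a the share of alpha tubulin was 92.4% ± 1.08 in HT OSN and 91.7% ± 1.95 in MexHT OSN (exact permutation p = 0.619, adjusted p = 0.688).

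**Figure D2:**
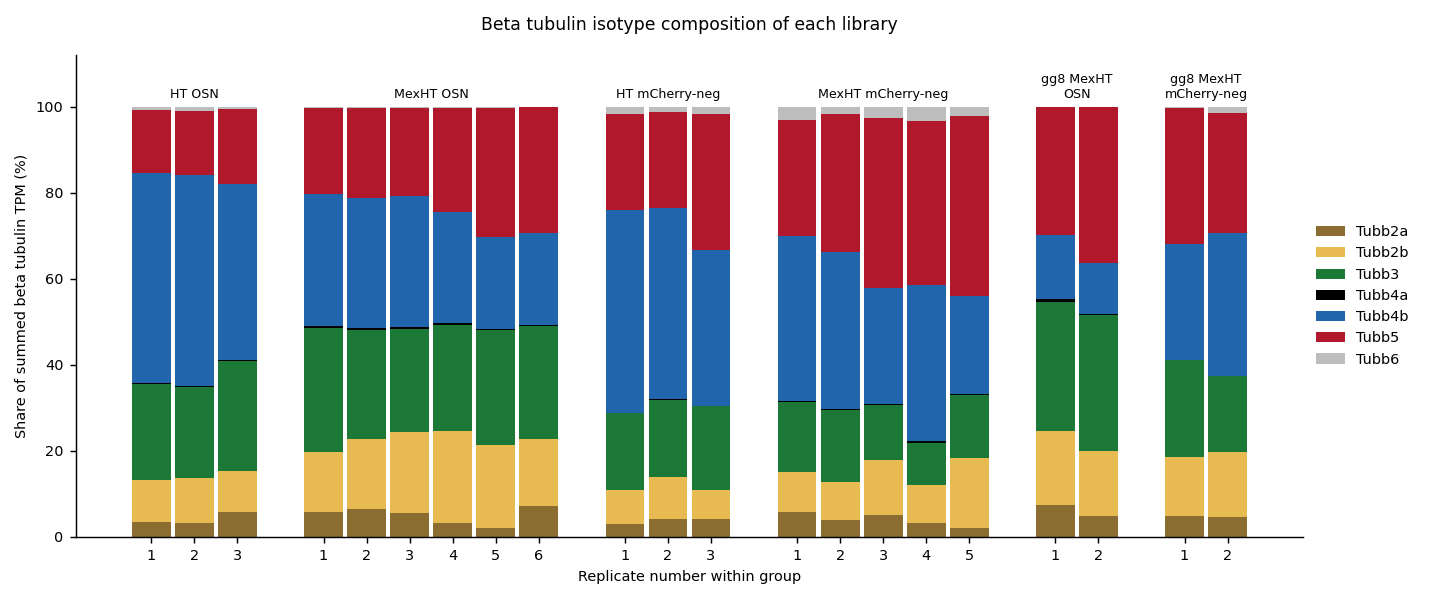
Stacked bars of each beta tubulin's share of the summed beta tubulin TPM (0% to 100%), 1 bar per library, numbered within its group. The Tubb4b band (blue) spans 41.0% to 49.2% in HT OSN, 21.3% to 30.7% in MexHT OSN and 11.8% to 14.9% in gg8 MexHT OSN.

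Xist and several cell type markers moved with this comparison. With the Xist level as a covariate, 0 of the 10 isotypes were called, and 329 genes in all. Estimates then were 1.25 for Tubb2b (adjusted p = 0.168), 1.91 for Tubb4a (0.0659), 1.21 for Tubb5 (0.302), -0.23 for Tubb4b (0.59) and -1.25 for Tubb6 (0.0928). In the only HT OSN library with Xist, library 2, Tubb2b (213.7 TPM), Tubb4a (2.43 TPM) and Tubb5 (303.7 TPM) were below every MexHT OSN library, and Tubb6 (20.7 TPM) was above every one. For Tubb4b, this library (1006 TPM) lay below MexHT OSN library 5. A single library does not separate Xist level from construct. All 12 called mature OSN markers of 14 were lower in MexHT OSN and all 10 called immature OSN markers of 15 were higher. Over all genes, 19.9% were called higher and 16.8% lower in this comparison. Progenitor and cell cycle markers (15 genes) summed to 259.5 to 360.3 TPM in HT OSN, to 433.1 to 489.5 TPM in MexHT OSN libraries 1 to 4, and to 1418 and 812.3 TPM in libraries 5 and 6. Mex3a was likewise higher in MexHT OSN libraries 5 and 6, at 1271 and 678.8 TPM, than in libraries 1 to 4 (328.5 to 359.1 TPM). Immune markers (10 genes) summed to 1367 to 5608 TPM in HT OSN and 314.6 to 607.5 TPM in MexHT OSN. The 12 genes listed for motile ciliated epithelium summed to 903.9 to 1187 TPM against 553.7 to 891.4 TPM. In MexHT mice 8 of them were called higher in OSN than in negative cells and 1 lower (35.8% and 27.6% over all genes). The list therefore does not set ciliated epithelium apart from OSN here. The part of these markers and of the Mex3a level in the tubulin differences was not tested. Without MexHT OSN libraries 5 and 6, again 3 isotypes were called higher and 2 lower, but the Tubb5 difference was 0.63 (adjusted p = 0.0174) in place of 1.05 and that of Tubb2b 0.98 (adjusted p = 0.00251) in place of 1.24. In bulk samples, fewer cells of a type and less RNA per cell cannot be told apart.

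**Figure D3:**
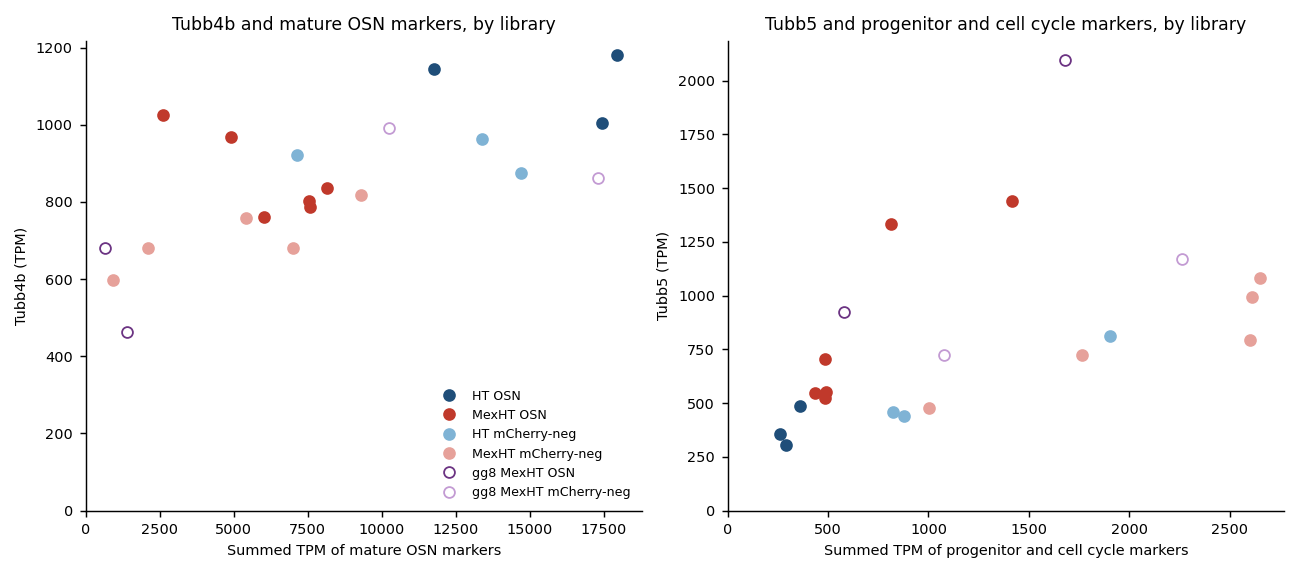
Left, Tubb4b against the summed level of 14 mature OSN markers; right, Tubb5 against the summed level of 15 progenitor and cell cycle markers (all in TPM, linear axes, 1 point per library, open points from the separately scaled gg8 table). HT OSN have mature marker sums of 11780 to 17940 TPM and Tubb4b of 1006 to 1182 TPM, and within MexHT OSN the 2 libraries with the highest progenitor sums have the highest Tubb5.

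MexHT neurons (6 libraries) were compared, unpaired, with MexHT mCherry-negative cells (5 libraries), and OSN library 6 had no negative library from its mouse. In this fit 9 of 10 isotypes differed, against 63.4% of all 16522 genes (35.8% higher and 27.6% lower). Tuba1a, Tubb2a, Tubb2b, Tubb3, Tubb4a and Tubb4b were higher in the neurons, and Tuba1b, Tuba4a and Tubb6 were lower. With each mouse as a block, 8 isotypes were called, against 10738 of 16522 genes. Groups did not overlap for 4 isotypes (Tuba1a, Tuba1b, Tubb3 and Tubb6), against 43.1% of all genes. The median difference was 0.56 over the isotypes and 0.16 over all genes.

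Tubb3 was the isotype with the largest rise. Its levels were 287.9, 379.4, 320.4, 207.5 and 375.8 TPM in the negative libraries and 615.4 to 1274 TPM in MexHT OSN, a difference of 1.45 (SE 0.221, adjusted p = 0.000103). Every OSN library lay above every negative one. Its share of beta tubulin was 14.07% ± 2.80 (n = 5) in negative cells and 25.9% ± 1.72 in MexHT OSN (exact permutation p = 0.00433, the smallest this design allows, adjusted p = 0.0216). Tuba1a rose by 0.83 (SE 0.133, adjusted p = 0.000163), from 703.1 to 981.6 TPM in negative cells. Its share of alpha tubulin was 75.1% ± 5.80 in negative cells and 91.7% ± 1.95 in MexHT OSN (exact permutation p = 0.00433, adjusted p = 0.0216). Paired by mouse, both share differences lost the call (exact paired p = 0.0625, adjusted p = 0.312), and 5 pairs cannot give a smaller p. Tubb2b rose by 1.23 (SE 0.281, adjusted p = 0.00206) and Tubb4a by 0.87 (SE 0.217, adjusted p = 0.00366). In both cases 1 negative library reached the OSN range: 421.4 TPM of Tubb2b in library 5 and 9.05 TPM of Tubb4a in library 3.

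A pair of these calls was weak. Tubb4b rose by 0.29 (adjusted p = 0.0467), a call lost without any 1 of 9 of the 11 libraries (all but MexHT OSN 4 and negative 2, adjusted p up to 0.126), at 0.15 (adjusted p = 0.29) after median-of-ratios scaling and at 0.25 (adjusted p = 0.137) with each mouse as a block. Tubb2a rose by 0.82 (adjusted p = 0.034), lost without MexHT OSN 1, 2 or 6 or negative library 2, 4 or 5 (adjusted p 0.0512 to 0.0859) and at 0.69 (adjusted p = 0.08) after that scaling. Median-of-ratios scaling also moved the median of all genes from 0.16 to 0.03.

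Of the isotypes lower in neurons, Tubb6 was at 38.6 to 67.0 TPM in negative cells and 6.96 to 11.1 TPM in MexHT OSN. The difference of -2.57 (SE 0.175, adjusted p = 1.1e-07) was the largest of any isotype in these comparisons. Tuba1b, an alpha tubulin of dividing and non-neuronal cells, was at 93.1 to 161.6 TPM in negative cells and 52.7 to 87.2 TPM in MexHT OSN (difference -1.03, SE 0.189, adjusted p = 0.000452). Tuba4a was at 104.8 to 197.7 TPM against 49.7 to 147.8 TPM (difference -1.05, SE 0.291, adjusted p = 0.007), and MexHT OSN libraries 5 and 6 overlapped the negative range. Tubb5 had a difference of -0.02 (SE 0.31, adjusted p = 0.969), and of -0.43 (SE 0.22, adjusted p = 0.105) without MexHT OSN libraries 5 and 6. In the MexHT negative cells it made up 35.7% ± 6.05 of beta tubulin and Tubb4b 32.3% ± 6.82, with overlapping ranges. Connective tissue, basal and progenitor markers were at their highest sums in these negative libraries (progenitor markers 1005 to 2653 TPM). Mature OSN markers summed to 925 to 9320 TPM in them and to 2633 to 8147 TPM in MexHT OSN, so the negative cells included mature OSN RNA. In the neurons 2 of 14 mature and 11 of 15 immature OSN markers were called higher, against 35.8% of all genes. The part of these markers in the tubulin differences was not tested.

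**Figure D4:**
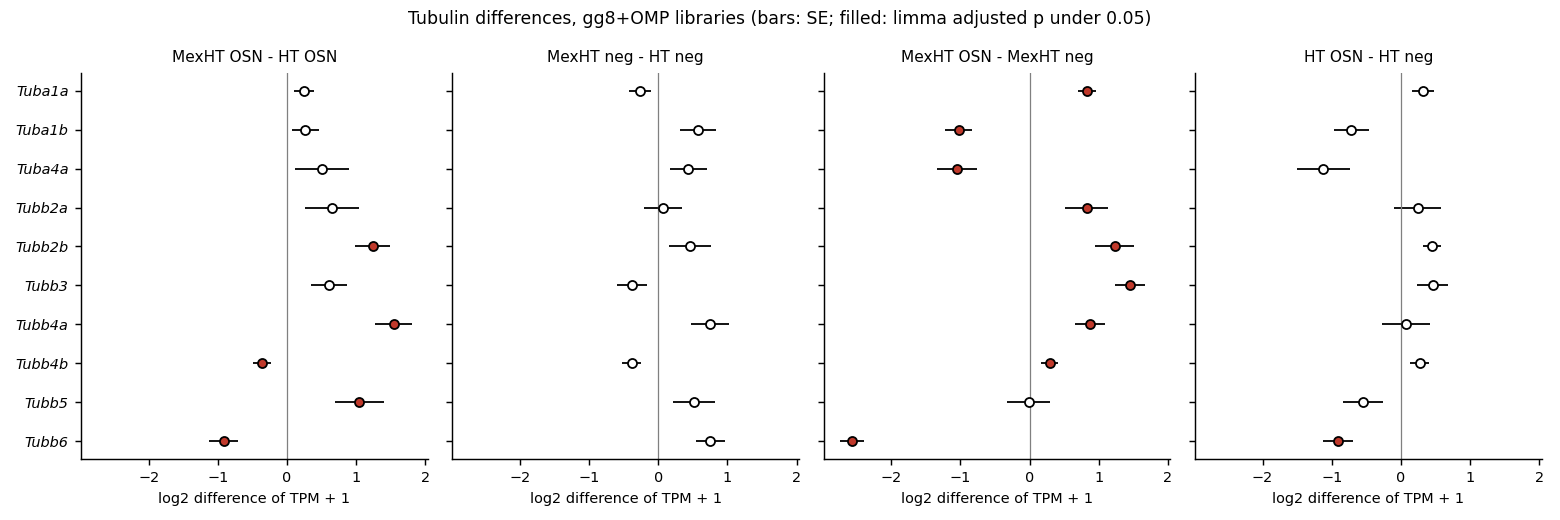
Log2 differences of TPM + 1 for the 10 isotypes in 4 comparisons of the libraries with both drivers, with bars of 1 SE and filled points for limma adjusted p under 0.05. Tubb6 is lower by 2.57 in MexHT OSN against negative cells and by 0.91 in HT OSN, and no isotype is called between the negative groups.

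The same contrast in HT mice gave 1 call, Tubb6, against 11.3% of 17027 genes (2.18% higher and 9.11% lower). Tubb6 was at 33.6, 25.4 and 40.8 TPM in negative cells and at 15.5, 20.7 and 15.2 TPM in HT OSN, which fell by 0.91 (SE 0.216, adjusted p = 0.0429). This call was lost when any 1 library other than negative library 2 was left out (adjusted p 0.0721 to 0.152). Groups did not overlap for 6 of the isotypes, against 41% of all genes. With each mouse as a block, 5 isotypes were called, against 29.2% of all genes: Tubb2b (0.45, adjusted p = 0.0423) and Tubb3 (0.46, adjusted p = 0.0257) higher, Tuba1b (-0.72, adjusted p = 0.0128), Tubb5 (-0.55, adjusted p = 0.0208) and Tubb6 lower. The shares of Tubb3 (23.05% against 18.4%) and Tuba1a (92.4% against 83.3%) did not overlap between HT OSN and negative cells, and both tests gave an exact permutation p = 0.1, the smallest that 3 against 3 allows. Beside these values, 5 of 10 immune markers were called higher in HT OSN (median 2.21). Called lower were 12 of 15 progenitor, 6 of 8 connective tissue and 4 of 5 basal markers. Of the neuronal markers, 0 of 14 mature OSN markers were called, and 2 of 15 immature OSN markers were called higher. Mature OSN markers summed to 11780 to 17940 TPM in HT OSN and to 7136 to 14720 TPM in HT negative cells, with overlap. The part of these markers in the tubulin values was not tested. Tuba4a, at 31.2 to 78.9 TPM in HT OSN and 83.6 to 167.8 TPM in negative cells, had a difference of -1.13 (SE 0.383, adjusted p = 0.0973).

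Whether the difference between neurons and negative cells itself differed by construct was tested over the 17 libraries with both drivers. Only Tubb6 passed, against 12.4% of 16785 genes (7.05% higher and 5.37% lower). Its difference was more negative in MexHT than in HT mice by 1.67 (interaction -1.67, SE 0.292, adjusted p = 0.00233). This call held in all 17 fits that left out 1 library (-1.82 to -1.49, adjusted p 0.00141 to 0.0101) and without MexHT OSN libraries 5 and 6. Tubb6 was both lower in MexHT than in HT neurons and at 38.6 to 67.0 TPM in MexHT against 25.4 to 40.8 TPM in HT negative cells. In the same interaction 10 of 10 immune markers (median -2.56) and 2 of 5 basal markers (median -1.25) were called lower. So were 1 of 12 sustentacular markers (median -1.36) and 1 of 8 connective tissue and vessel markers (median -0.194), against 5.37% of all genes. Of the progenitor (0 of 15, median 0.125) and ensheathing glia lists (0 of 7, median 0.367), none was called. The part of these markers in the Tubb6 interaction was not tested. For Tubb3 the interaction was 0.99 (SE 0.36, adjusted p = 0.0805), and with each mouse as a block it was 0.89 (adjusted p = 0.0348, with 15.5% of all genes called). Tuba1a had 0.51 (adjusted p = 0.118), Tubb4a 0.80 (0.187) and Tubb2b 0.78 (0.237).

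Between the negative groups, MexHT against HT, no isotype was called, nor was any of 16860 genes (0%). At an unadjusted p under 0.05 there were 3465 genes (20.6%) and 3 isotypes: Tubb4a (0.74), Tubb4b (-0.39) and Tubb6 (0.75), each with a limma adjusted p = 0.218. With voom on recovered counts the count was 0 as well. Tubb4b was the 1 isotype without overlap, at 962.6, 875.8 and 922.2 TPM in HT and 680.8, 819.3, 680.3, 758.4 and 596.5 TPM in MexHT negative cells, against 8.71% of all genes. Mex3a was also present in MexHT negative cells, at 57.8 to 206.8 TPM against 29.3 to 74.3 TPM in HT, with a difference of 1.13 (adjusted p = 0.219). The Tubb3 share was 18.4% ± 0.963 in HT and 14.07% ± 2.80 in MexHT negative cells (exact permutation p = 0.0357, the smallest this design allows, adjusted p = 0.119).

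In mice with the gg8 driver alone, whose mCherry-positive cells are labelled immature OSN, no isotype passed the limma test between neurons and negative cells (2 libraries each). The background was 8.32% of 16490 genes called (1.12% higher and 7.2% lower). At an unadjusted p under 0.05 there were 4 isotypes (Tubb2a, Tubb3, Tubb4a and Tubb6), against 31% of all genes, and voom called 0. With 100 genes changed by 2-fold and 100 by 4-fold in simulated data of this size, 0% of either was recovered. In the real comparison 1372 genes were called, so this share does not give the power of that test. Groups did not overlap for 7 isotypes, against 63.6% of all genes. Tubb3 was at 933.9 and 1833 TPM in the neurons and 830.5 and 456.0 TPM in negative cells (1.09, SE 0.448, adjusted p = 0.158). Tubb4b was at 461.7 and 679.5 TPM against 991.6 and 862.8 TPM (-0.72, SE 0.309, adjusted p = 0.168), and Tubb6 at 1.62 and 7.41 TPM against 9.47 and 35.3 TPM (-2.06, SE 0.829, adjusted p = 0.151). Tuba4a differed widely between the 2 neuron libraries (49.1 and 271.4 TPM). These 2 libraries also differed in Xist (0.441 and 159.4 TPM), Mex3a (460.3 and 1632 TPM) and summed progenitor markers (578.4 and 1681 TPM). Without the first of them Tuba4a was called at 1.21 (adjusted p = 0.0312), where the remaining library is assumed to vary like the other group.

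The gg8 table was scaled separately and its libraries carry another date, so levels are only set side by side. Tubb4b made up 13.3% ± 2.19 of beta tubulin in gg8 MexHT OSN (SD, n = 2), while Tubb5 made up 33.05% ± 4.65 and Tubb3 30.9% ± 1.19. The order of these 2 differed between libraries, with Tubb5 at 29.8% and 36.3% and Tubb3 at 30.1% and 31.8%. In MexHT OSN with both drivers these shares were 26.7%, 24.1% and 25.9%. Mature OSN markers summed to 674.4 and 1400.0 TPM in gg8 MexHT OSN. The Tuba1a share of alpha tubulin was 84.2% and 94.5% in the gg8 neuron libraries and 89.1% and 89.8% in gg8 negative cells, and 2 against 2 libraries cannot give an exact permutation p under 0.333. Negative cells of gg8 mice held mature OSN marker sums of 10260 and 17300 TPM, unlike their mCherry-positive cells.

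Genes that fold, bind, cut or modify tubulin were counted from lists, in the main fits only. With the Xist level as a covariate, all genes called between MexHT and HT OSN went from 5907 to 329. The list genes were not followed in that fit. Between MexHT and HT OSN, 12 of 21 folding genes rose and 1 fell, against 19.9% of all genes higher and 16.8% lower (median 0.50, against 0.03 over all genes). These are subunits of the chaperonin CCT and of prefoldin, which hand newly made tubulin on, and the cofactors that join the dimer. Pfdn6, a subunit of prefoldin, was at 103 ± 10.5 TPM (n = 3) in HT and 178 ± 49.5 TPM (n = 6) in MexHT OSN (difference 0.74, adjusted p = 0.0172). Cct5, a chaperonin subunit, rose by 0.66 (adjusted p = 0.00503), and Tbcel, a cofactor-like protein, fell by 0.58 (adjusted p = 0.0135).

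Of 20 microtubule-associated proteins, 8 rose and 1 fell in the same comparison (median 0.35), 9 called in all against 36.8% of all genes. Mapt, which encodes the axonal protein tau, was at 27.2 ± 15.1 TPM in HT and 158 ± 49.1 TPM in MexHT OSN, a difference of 2.57 (SE 0.317, adjusted p = 0.00041). Map7d1 rose by 1.14 (adjusted p = 0.00433), and its relative Map7, a partner of kinesin, fell by 0.64 (adjusted p = 0.00888). Stathmins, which bind free tubulin dimers, and severing enzymes had 5 of 9 higher and 0 lower (median 0.43), beside the same background of 19.9% higher and 16.8% lower. Stmn1 was at 565 ± 74.2 TPM in HT and 1030 ± 179 TPM in MexHT OSN (0.85, adjusted p = 0.00293), and Fignl1 rose by 0.89 (adjusted p = 0.00793).

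Tubulin-modifying enzymes went both ways, with 4 of 22 higher, against 19.9% of all genes, and 7 lower, against 16.8% (median -0.24). Ttll7 and Ttll6, which add glutamate chains to tubulin tails, fell by 1.76 (adjusted p = 0.00355) and by 1.44 (adjusted p = 0.00383). Ttll7 was at 429 ± 83.9 TPM in HT and 135 ± 56.7 TPM in MexHT OSN. Vash1, which removes the last tyrosine of alpha tubulin, rose by 1.59 (adjusted p = 0.000205), and Ttll12 by 0.84 (adjusted p = 0.0302). Among 6 other tubulins tested, 2 rose and 0 fell, too few to set against the 36.8% of all genes called: Tube1 (epsilon tubulin) by 1.08 (adjusted p = 0.00718) and Tubg2 (a gamma tubulin, part of the complex that starts microtubules) by 0.74 (adjusted p = 0.0029).

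Between MexHT OSN and their negative cells, 16 of 20 microtubule-associated proteins rose and 0 fell (median 0.87), as did 15 of 22 modifying enzymes with 0 lower (median 0.82) and 10 of 21 folding genes with 0 lower (median 0.32). Over all genes 35.8% were higher and 27.6% lower, with a median of 0.16. Mapt (2.43, adjusted p = 1.88e-06), Map7d2 (2.05, adjusted p = 6.21e-05), Ttll10 (1.73, adjusted p = 9.48e-06) and Agbl4 (1.60, adjusted p = 6.43e-05) led their lists. Stmn3 and Stmn4 each rose by 1.43, within a list of stathmins and severing enzymes that had 6 of 10 higher and 2 lower. Of 7 other tubulins, 1 rose (Tubg2, 1.80) and 3 fell, among them Tuba1c (-0.88, adjusted p = 5.95e-05), the isotype with which Tuba1a and Tuba1b share most sequence. In HT mice the only gene of these lists called was Tbcc, a tubulin cofactor (0.48, adjusted p = 0.0431), beside 11.3% of all genes. The lists tested there held 21 folding genes, 20 microtubule-associated proteins, 22 modifying enzymes, 10 stathmins and severing enzymes and 8 other tubulins. In gg8 mice the only one called was Map7d1 (1.28, adjusted p = 0.0421), beside 8.32% of all genes. Between the negative groups there was none, beside 0% of all genes.

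The genes whose levels were most like those of 3 isotypes were found by Pearson correlation of log2(TPM + 1) over the 17 libraries with both drivers, among 12406 genes. These libraries fall into 4 groups and share mice, so the correlations largely describe group levels and carry no test. For Tubb3 the nearest were Exoc7 (r = 0.977), Arhgap1 (0.971) and Nicn1 (0.969). For Tubb5 they were Gpatch4 (0.978), Nop16 (0.969) and Hn1 (0.966), and for Tubb4b Fkbp15 (0.936), Rufy1 (0.934) and Ttyh2 (0.921). Within the isotypes, Tubb3 followed Tuba1a most closely (r = 0.912) and ran opposite to Tubb6 (-0.858), while Tubb3 and Tubb5 were only loosely related (0.303).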

How the data were processed

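RNA from 21 libraries of sorted mouse cells was measured. The authors deposited 2 tables of TPM values by gene symbol, 1 for 17 libraries and 1 for 4, scaled separately. Per the submitters' processing notes, FastQC, cutadapt, STAR, bedtools and mm10 were used, and the counting program, annotation and handling of strand are not given in the sources used here. Symbols turned into dates (27 in each) were left out. TPM values of nearly all genes were whole multiples of 1 step per gene, within 0.001 of a whole count in the first table (23613 of 23614 genes, of which 429 had a value in at most 1 library and were whole by construction) and within about 0.01 in the second (22593 of 22604). These counts were used for depth and for voom as an alternative. All columns were matched to samples by name.

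Each comparison was fitted with limma 3.58.1 (R 4.3.3, mean trend) on log2(TPM + 1), keeping genes that averaged 1 TPM or more, with Benjamini-Hochberg adjustment over all genes, threshold 0.05, two-sided. A pseudocount of 1 TPM understates changes of low genes. Shares were compared by exact permutation tests (Python 3.11.15), adjusted over 10. In simulated data for MexHT OSN against HT OSN (15976 genes), 100 genes were changed by 2-fold and 100 by 4-fold. Of these, 66% and 91% were recovered. The real comparison called 5907 genes, so these shares do not give its power. Isotypes and lists were chosen with earlier results of these data known. Named genes were the isotypes, Mex3a, Xist, up to 2 called genes per list and direction with at least 5 TPM, and the 3 genes most like Tubb3, Tubb5 and Tubb4b.

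Same-numbered OSN and negative libraries came from the same mouse, per the labels. Their deviations from group means correlated at -0.136 to 0.496 (MexHT), 0.233 to 0.526 (HT) and -0.00907 (gg8). Pairs with unlike numbers correlated at -0.392 to 0.406 (MexHT), -0.452 to 0.254 (HT) and 0.00907 (gg8), so the ranges overlapped in MexHT and HT mice. With 2 libraries per group, the gg8 values are equal in size by construction. Alternatives were a pseudocount of 0.1 TPM, no filter, median-of-ratios scaling, voom, 1 fit of 4 groups, a mouse block, Xist as a covariate, each library left out, and, chosen after seeing the data, MexHT OSN libraries 5 and 6 left out. Where the labels do not say that replicates came from separate mice, p-values measure only the spread between these libraries.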

Additional observations from a re-analysis of the deposited data

Results flagged for a closer look

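Tubb2a in MexHT OSN library 6 was at 327.0 TPM, far from the other 5 libraries of its group (91.2 to 167.6 TPM). Its gap to the nearest library was 0.676 of the group's range. Chance sets apart about 1 in 20 groups, and 40 groups of isotype levels and shares were examined. Without this library the Tubb2a difference between MexHT OSN and negative cells was 0.60 (adjusted p = 0.0532).

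The Tubb6 difference between neurons and negative cells differed between MexHT and HT mice by an interaction of -1.67 (limma adjusted p = 0.00233), tested over 17 libraries.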

How the results depend on the processing

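Among MexHT OSN against HT OSN, 5 isotypes were called, 3 with no filter on low values, 0 with Xist as a covariate, and 3 to 5 with 1 library left out (3 without MexHT OSN 4, HT OSN 1 or HT OSN 2). All genes called went from 5907 to 329 with Xist and to 3745 without HT OSN 1 and 3886 without HT OSN 2. For HT OSN against negative cells, the 1 isotype became 0 with no filter or voom, 2 with Xist, 5 with the mouse block and 0 to 3 with 1 library left out, and genes called went from 1923 to 4967 with the block and to 1057 with voom. For gg8 mice, 0 became 1 with Xist (Tubb6, adjusted p = 0.018), and 0 to 1 with 1 library left out. The interaction gave 1 isotype, 2 with the block, and 1 in each fit that left out 1 library. Its split of 1184 genes higher and 902 lower became 716 and 1057 after median-of-ratios scaling. For MexHT OSN against negative cells the count of 9 became 8 with no filter or the mouse block and 7 with median-of-ratios scaling or voom. It was 7 to 9 with 1 library left out. Between the negative groups it was 0 throughout, with 24 genes called when 4 groups shared 1 fit.

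Paired by mouse, the Tubb3 and Tuba1a shares in MexHT OSN against negative cells differed by 11.8 and 16.8 points (exact p = 0.0625, adjusted p = 0.312, from 5 pairs, which cannot give a smaller p). The Tuba1a share difference of -0.743 points between MexHT and HT OSN became 0.534 over all alpha genes and 0.0787 with the replicate block, where the numbers do not pair mice (correlations 0.137, 0.181 and -0.308). In that block 4 isotypes were called and Tubb5 was at 0.532 (adjusted p = 0.0652). The gg8 Tuba1a share difference of -0.103 points became 0.829 over all alpha genes and -5.21 to 5.01 with 1 library left out. Uncalled differences changed sign for Tubb4a in HT mice (-0.0668 with voom, -0.235 to 0.228 with 1 library left out). In the interaction Tuba4a went to -0.0305 (median-of-ratios), -0.0705 (block) and -0.341 (without MexHT OSN 5 and 6), with -0.307 to 0.349 over single libraries, and Tubb4b to -0.0864, -0.0163 and -0.0894, with -0.0515 to 0.0736. With 1 library left out, signs also changed for Tubb2a between negative groups (-0.118 to 0.248) and in HT mice (-0.131 to 0.499), Tubb5 in MexHT mice (-0.195 to 0.101), and in gg8 mice Tuba1a (-0.219 to 0.165) and Tuba4a (-1.23 to 1.21). The cause of these changes was not tested. Reads that match several isotypes and low Tubb4a counts limit precision.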
